A study of Homo sapiens with 6 samples.

Results

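ISG15 and the enzymes that attach and remove it form a set of 6 genes, ISG15, UBA7, UBE2L6, HERC5, HERC6 and USP18, among the 26364 gene symbols counted in this study. The rows were chosen by symbol, and all 6 are in every library. The set was proposed with the log2 fold changes between the CDK12 and the control libraries already known, so these values had a part in its choice. For that reason the changes of its members are given as a description, and where a member's call in the fit across all genes is stated, nothing is supported by it. The data are RNA-seq libraries of polyadenylated RNA from ZR-75-30, an established breast adenocarcinoma line with amplified ERBB2. Of the 6 libraries, 3 came from cells infected with the control lentivirus (pLVX) and 3 from cells infected with the lentivirus that carries CDK12 (pLVX-CDK12); all 6 thus come from infected cells, and no uninfected cells were analysed here. The labels call the replicates biological but do not say whether they came from separate infections, so errors and p-values measure only the spread between these libraries.

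ISG15 is a small protein with a pair of ubiquitin-like domains that is joined to other proteins much as ubiquitin is, a process called ISGylation. UBA7 activates it (E1), UBE2L6 carries it (E2), HERC5 is the main ligase in human cells (E3), and USP18 takes it off again. All of these genes are known to be induced by interferon, and USP18 also damps type I interferon signalling by binding the receptor chain IFNAR2 with the help of STAT2. ISG15 can also act as a free protein inside cells or be secreted.

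Promoter windows from RefSeq (GRCh38.p14, 250 bases before to 50 bases after a gene's start) were at hand for 4 of the 6 genes, in 5 windows, since UBE2L6 has more than 1. They were searched on both strands for GAAA, any pair of bases and again GAAA, the core of the interferon-stimulated response element, which is the letter pattern bound by ISGF3 and IRF proteins. ISG15 and HERC5 held it, and HERC6 and both UBE2L6 windows did not. Both UBE2L6 windows have 0 bases before the first exon base of GENCODE 29, and the HERC6 window has 137. Exon bases of the gene itself thus make up much of the upstream part of these windows. A missing match there does not show that the promoters of UBE2L6 and HERC6 lack the pattern. UBA7 and USP18 are named only. The stretches of ISG15 and HERC5 are shown because they hold the same pattern in front of the genes with the largest and the smallest log2 fold change of the set. Each is written 5′ to 3′ on the + strand, which is the strand of the gene, with the matches in capitals, and each stops before the first exon base of GENCODE 29. The ISG15 stretch, chr1:1013247-1013422, lies between exons of a longer ISG15 transcript in GENCODE 29. The HERC5 stretch, chr4:88456869-88457116, lies outside annotated genes there.
ISG15: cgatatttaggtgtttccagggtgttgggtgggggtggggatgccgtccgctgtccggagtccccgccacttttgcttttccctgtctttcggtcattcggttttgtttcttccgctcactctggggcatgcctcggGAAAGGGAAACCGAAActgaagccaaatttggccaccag
HERC5: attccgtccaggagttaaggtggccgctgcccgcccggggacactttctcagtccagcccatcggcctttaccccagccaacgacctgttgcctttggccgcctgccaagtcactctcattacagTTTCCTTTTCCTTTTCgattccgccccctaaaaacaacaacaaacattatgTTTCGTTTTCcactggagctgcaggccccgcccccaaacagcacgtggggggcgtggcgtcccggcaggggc

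The ISG15 stretch holds 2 overlapping matches, on the strand of the gene, that begin 113 and 107 bases before the start. The HERC5 stretch holds 3 matches on the other strand, where the pattern reads TTTC, any pair of bases and again TTTC; they begin 125, 119 and 74 bases before the start, and the first and second overlap. Of all 35116 RefSeq promoter windows, 1255 (3.57%) held the pattern. The gamma-activated site TTCNNNGAA, searched on both strands, was in none of the 5 windows and in 7.66% of all windows. The limit named above for the UBE2L6 and HERC6 windows holds here too. A match describes letters and does not show that a factor binds there.

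The libraries held 21178163 to 26543653 counts. Levels are given as CPM, counts per 1000000 after scaling of the libraries by TMM, and a fold change is the CDK12 group against the control group from the fit across all genes. CDK12 itself was at 72.8 to 81.8 CPM in the control libraries and at 2009 to 2240 CPM in the CDK12 libraries, as labelled. The 6 epithelial markers summed to 13240 to 13860 CPM in controls and 11610 to 12140 CPM with the CDK12 virus. ERBB2 made up most of that sum (8338 to 8829 and 7152 to 7645 CPM). It was lower, as were KRT8 and KRT18, so 3 of the 6 were lower, where 18.9% of all genes tested were. KRT19, EPCAM (log2 fold change -0.05) and CDH1 (0.16) did not pass the test. The 7 leukocyte markers summed to 41.2 to 44.6 and to 29.5 to 33.1 CPM; 2 of the 7 were lower, ITGAM (37.4 ± 1.76 to 27.9 ± 1.82 CPM, SD, n = 3) and PTPRC (2.96 ± 0.11 to 0.358 ± 0.06 CPM), 1 (CD14, 0.476 ± 0.13 to 0.852 ± 0.19 CPM) was higher, and CD3E, MS4A1 and LYZ did not pass the filter on low counts. The 5 stromal markers summed to 46.8 to 51.4 and to 60.3 to 71.2 CPM. Most of that sum was COL1A1, which was higher (48.2 ± 2.52 to 63.8 ± 6.10 CPM), while COL3A1 was lower (0.602 ± 0.030 to 0.109 ± 0.066 CPM). COL1A2, PECAM1 and PDGFRB did not pass the filter, and the first and second of these were lower in every CDK12 library than in any control library. The sums moved with the groups, as did the members, and their part in the values below was not tested. In such bulk samples, fewer cells that express a gene and less RNA per cell cannot be told apart.

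ISG15, the modifier itself, had the largest difference of the set. It was at 25.1, 14.0 and 12.8 CPM in control replicates 1, 2 and 3, and at 3.83, 3.67 and 4.34 CPM in the CDK12 replicates (572, 291 and 315 counts against 103, 89 and 104). Every control library lay above every CDK12 library, and control replicate 1 stood well above the other controls. The mean went from 17.3 ± 6.82 to 3.94 ± 0.35 CPM (SD over 3 libraries in each group). The log2 fold change was -2.13 (SE 0.18) or a 4.38-fold lower level. The SD among the controls was far larger than that among the CDK12 libraries.

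The activating and carrying enzymes had smaller differences. UBA7, the E1, was at 10.02, 6.81 and 7.79 CPM in the controls and at 5.54, 4.94 and 5.59 CPM with the CDK12 virus, without overlap of the groups. Its mean went from 8.21 ± 1.64 to 5.36 ± 0.36 CPM, a log2 fold change of -0.62 (SE 0.12). UBE2L6, the E2, was at 94.3, 72.9 and 76.4 CPM in the controls and at 65.8, 62.1 and 62.1 CPM with the CDK12 virus. Its groups did not overlap either, but the gap was narrow: the lowest control and the highest CDK12 library were 72.9 and 65.8 CPM. The UBE2L6 mean went from 81.2 ± 11.5 to 63.3 ± 2.17 CPM, a log2 fold change of -0.36 (SE 0.06).

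The HERC genes, which lie side by side on chromosome 4, had different values. HERC6, the relative of HERC5 that serves as the main ISG15 ligase in mice, was at 74.4, 56.7 and 50.005 CPM in the controls and at 32.0, 32.7 and 30.0 CPM with the CDK12 virus. Its mean went from 60.4 ± 12.6 to 31.6 ± 1.40 CPM, a log2 fold change of -0.93 (SE 0.09) or a 1.91-fold lower level. HERC5, the human ligase, was at 23.4, 21.9 and 20.6 CPM in the controls and at 20.9, 19.6 and 18.2 CPM with the CDK12 virus. Its groups overlapped, since CDK12 replicate 1 lay above control replicate 3. HERC5 had a log2 fold change of -0.16 (SE 0.07), the smallest of the set. Its promoter window holds 3 of the matches shown above, and a link between the matches and the changes was not tested.

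USP18, the protease that removes ISG15, was at 26.7, 21.4 and 20.6 CPM in the controls and at 13.8, 13.7 and 12.5 CPM with the CDK12 virus. The groups did not overlap, and the CDK12 libraries lay close together. The mean went from 22.9 ± 3.31 to 13.3 ± 0.71 CPM, a log2 fold change of -0.78 (SE 0.09) or a 1.72-fold lower level. USP18 has a near copy, USP41, which is not among the gene symbols counted. Of the 100-base words in the USP18 transcripts of GENCODE 29, 15.4% also occur in transcripts of USP41. Part of the USP18 reads could thus be shared or lost. The same search found 0% for ISG15, UBE2L6, HERC5 and HERC6, and 0.196% for UBA7, all in the microRNA gene MIR5193 that overlaps it.

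**Figure D1:**
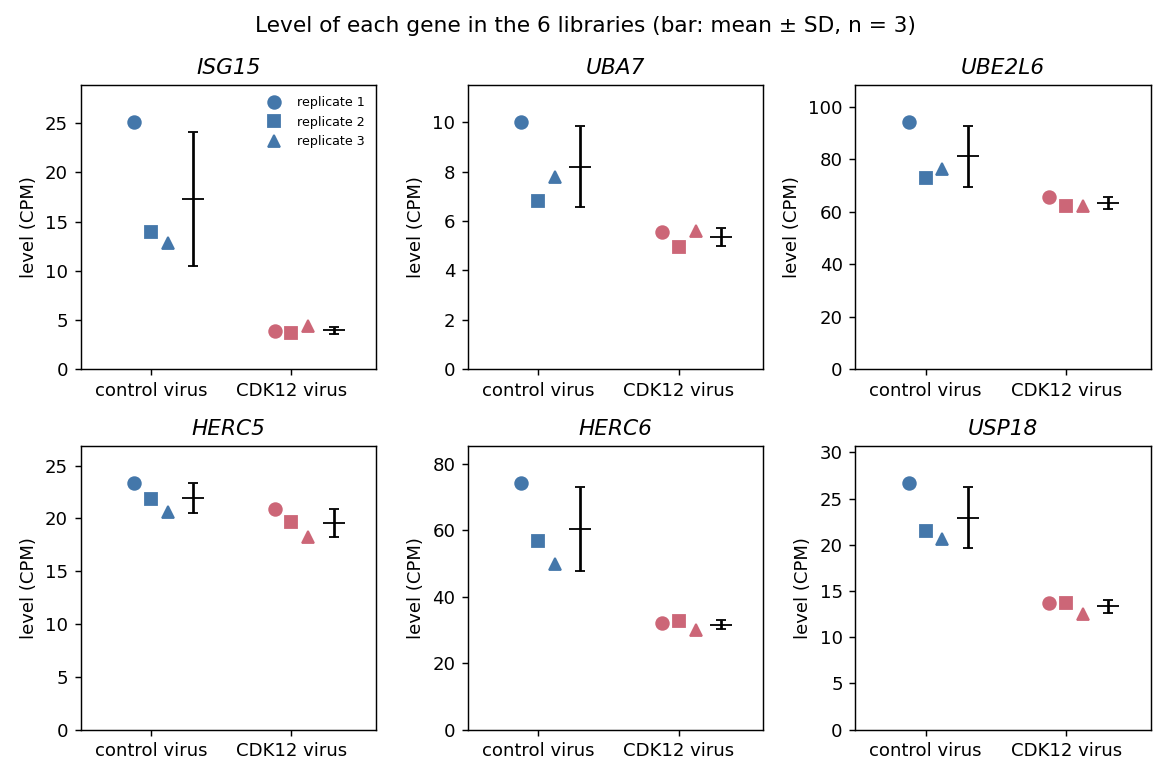
Level of each gene (y axis, CPM, from 0) in the 3 control and 3 CDK12 libraries, 1 symbol per replicate, with the mean and SD as a black bar. Control replicate 1 is the highest library in all 6 panels, and HERC5 is the gene whose groups overlap.

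By edgeR's quasi-likelihood test, 5 of the 6 members passed a Benjamini-Hochberg adjusted p of 0.05, all lower, and HERC5 did not. Among all 14665 genes tested, 35.1% passed in either direction and 18.9% were lower. In 5 of 6 members every control library lay above every CDK12 library, as in 23.6% of all genes tested. The median log2 fold change was -0.70 over the members and 0.00 over all genes tested. Since the members were chosen with this comparison known, nothing is read from these counts. All 6 members passed the filter on low counts.

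The controls differed among themselves in a way the members shared. Control replicate 1 was the highest library for all 6 members. Relative to the mean of control replicates 2 and 3, it was 1.88-fold higher for ISG15, 1.39-fold for HERC6, 1.37-fold for UBA7, 1.27-fold for USP18, 1.26-fold for UBE2L6 and 1.10-fold for HERC5. On the log2 scale this excess had a median of 0.38 over the members and of 0.00 (-0.00177) over all genes tested. It rests on 1 library, so it has no replicate check. Among the CDK12 libraries the highest was at most 1.18-fold above the lowest, the value of ISG15.

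Without control replicate 1 every member was still lower in the CDK12 libraries, by less. The log2 fold change was then -1.76 for ISG15, -0.75 for HERC6, -0.66 for USP18, -0.45 for UBA7, -0.24 for UBE2L6 and -0.11 for HERC5. The order of the members by log2 fold change was that of the fit with all libraries. The value of UBE2L6 moved most in proportion, from -0.36 to -0.24. The size of each difference thus depends on that library, while its sign was kept.

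**Figure D2:**
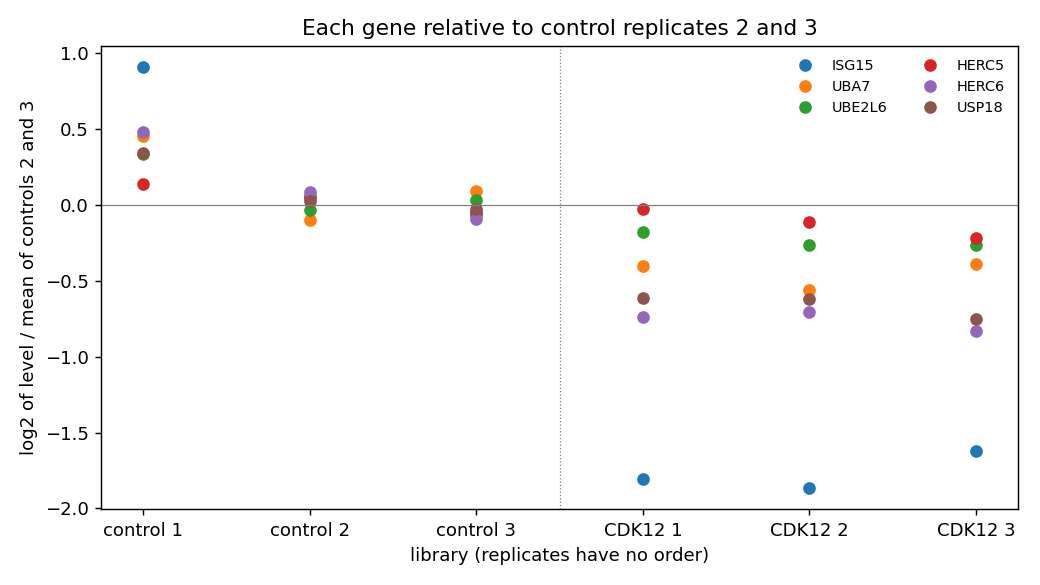
Level of each gene in each library as log2 of its ratio to the mean of control replicates 2 and 3 (y axis), libraries on the x axis, 1 colour per gene. All 6 genes are above 0 in control replicate 1, where ISG15 is 1.88-fold higher, and ISG15 lies far below the other 5 in all 3 CDK12 libraries.

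Levels can be compared between genes only per length, for which CPM were divided by the merged exon length of each gene in GENCODE 29; the gene models behind the deposited counts may differ. In the controls UBE2L6 was the most abundant at 37.0 ± 5.24 CPM per kb (SD, n = 3), followed by ISG15 at 18.4 ± 7.24. USP18 at 10.8 ± 1.55 and HERC6 at 10.4 ± 2.17 CPM per kb did not differ beyond their spread. HERC5 was at 4.60 ± 0.29, and the E1 gene UBA7 was the lowest at 1.81 ± 0.36 CPM per kb.

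In the CDK12 libraries the order of these levels per kb was different in the middle and the same at both ends. UBE2L6 was again the highest at 28.8 ± 0.99 CPM per kb and UBA7 the lowest at 1.18 ± 0.08, as in each of the 6 libraries. ISG15, second in each control library, was at 4.19 ± 0.37 CPM per kb, below USP18 at 6.26 ± 0.33 and HERC6 at 5.45 ± 0.24 and not apart from HERC5 at 4.11 ± 0.28 beyond the spread. On this scale the modifier transcript was thus above the levels of its ligase and protease genes in each control library, and at about the level of HERC5 in the CDK12 libraries.

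**Figure D3:**
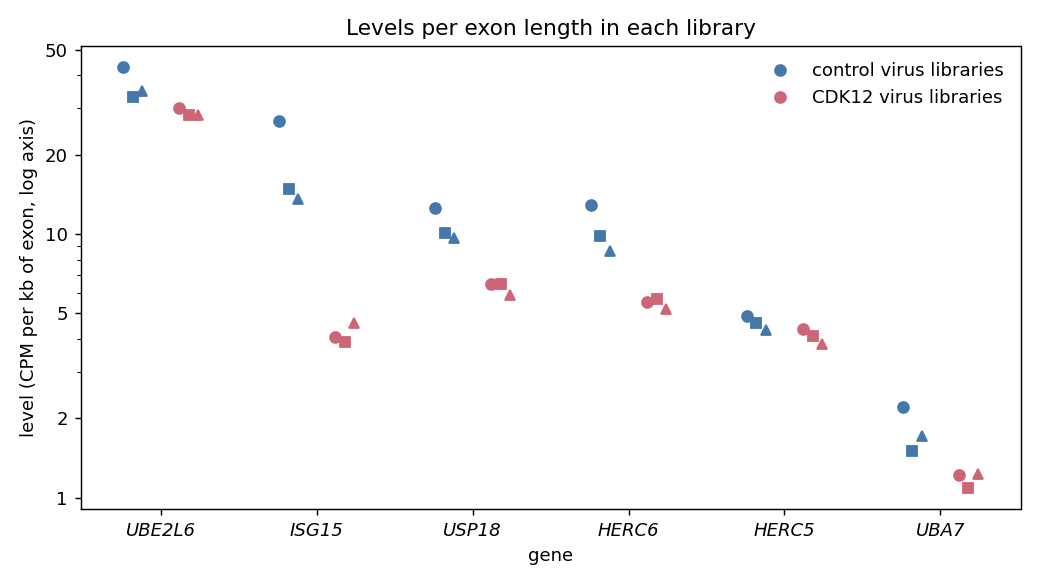
Level of each gene per kb of exon (y axis, CPM per kb, log axis) in the 3 control and 3 CDK12 libraries, genes ordered by the control mean. ISG15 is second in each control library and lies between 3.90 and 4.61 CPM per kb in the CDK12 libraries, among the values of HERC5.

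Further ligases and proteases act on ISG15 besides the members. Of 9 such genes tested, 2 fell, 0 rose and 7 did not pass, and the median was -0.04 on the log2 scale. That is 22.2% called against 35.1% of all genes tested, of which 18.9% were lower, so nothing is read from this count. TRIM25, also called EFP, a ubiquitin and ISG15 ligase that is itself interferon-induced, went down from 277 ± 12.4 to 219 ± 7.85 CPM, by edgeR's test with an adjusted p of 5.59e-07 and a log2 fold change of -0.34 (SE 0.04). USP5, a ubiquitin protease that also reacts with ISG15, fell from 225 ± 5.46 to 195 ± 4.15 CPM. ARIH1, another ligase reported to attach ISG15, was at 147 ± 3.41 and 151 ± 3.40 CPM (log2 fold change 0.03) and did not pass.

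Of the 6 partners of USP18 in receptor inhibition and protein turnover, 3 fell, 0 rose and 3 did not pass, where 18.9% of all genes tested were lower; a list of 6 is too short to read a difference from this. STAT2, which docks USP18 on the receptor, went down from 67.0 ± 7.18 to 48.7 ± 1.59 CPM, by edgeR's test with an adjusted p of 8.04e-07 and a log2 fold change of -0.46 (SE 0.06). The receptor kinases JAK1 and TYK2 also fell (log2 fold changes -0.20 and -0.23). IFNAR2, the receptor chain that USP18 binds, was at 7.24 ± 0.22 and 7.65 ± 0.84 CPM, and SKP2, a ligase subunit that targets USP18, at 23.0 ± 0.53 and 22.7 ± 0.63 CPM; neither passed the test. The genes of the receptor for secreted ISG15, ITGAL and ITGB2, did not pass the test, and together they gave 2.73 to 4.30 CPM in controls and 4.20 to 4.94 CPM with the CDK12 virus.

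Substrates reported for ISG15 included many genes that fell. Of 18 such genes, 10 fell, 1 rose and 7 did not pass; the median was -0.19 on the log2 scale. Of all genes tested, 35.1% passed in either direction. The 3 with the smallest p, IFIT1 (-3.78), MX1 (-3.07) and DDX58 (-1.39, all log2 fold changes), are themselves interferon-stimulated genes; DDX58 encodes the RNA sensor RIG-I. IFIH1, which encodes the RNA sensor MDA5, fell too (-0.60), as did EIF2AK2, which encodes an RNA-activated kinase (-0.37). The 1 that rose was UBE2E1, a ubiquitin E2 gene, from 79.3 ± 2.14 to 89.3 ± 0.91 CPM.

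The nearest relatives of the members that serve ubiquitin differed little between the groups. UBA1, the main ubiquitin E1, fell from 489 ± 8.91 to 421 ± 6.21 CPM (log2 fold change -0.22), the 1 of 6 ubiquitin E1 and nearest E2 genes that passed. Of all genes tested, 35.1% passed in either direction. UBE2L3, the closest relative of UBE2L6, was at 194 ± 6.36 and 183 ± 10.3 CPM (log2 fold change -0.08) and did not pass; without CDK12 replicate 1 it was lower (log2 fold change -0.13, edgeR adjusted p = 0.0237). Of the other 4 HERC genes, HERC4 rose (log2 fold change 0.12) and HERC1 (-0.13), HERC2 (-0.12) and HERC3 (0.08) did not pass. HERC4 missed the threshold when control replicate 1 or 3 or CDK12 replicate 1 was left out (log2 fold change 0.11, 0.12 and 0.11). HERC1 passed, as lower, when CDK12 replicate 2 was left out (-0.20), HERC2 when CDK12 replicate 2 or 3 was left out (-0.16 and -0.17), and both without the filter on low counts.

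Cascades that attach other ubiquitin-like proteins moved in both directions by small amounts. Over the NEDD8, SUMO, UFM1, FAT10, URM1 and ATG8/ATG12 cascades, 45 genes in all, 6 rose, 6 fell and 33 did not pass, 26.7% called against 35.1% of all genes tested. Their log2 fold changes ran from -0.37 to 0.22 with a median of -0.01, and ISG15, HERC6, USP18 and UBA7 lay below that range. Both ends of it came from the URM1 pathway: the modifier gene URM1 fell from 44.4 ± 2.07 to 34.3 ± 1.92 CPM, and MOCS3, the gene of its E1, rose from 17.6 ± 0.47 to 20.6 ± 0.36 CPM. UFC1, the E2 of the UFM1 cascade, fell from 145 ± 4.33 to 119 ± 7.34 CPM (log2 fold change -0.29). The medians were -0.04 for 9 NEDD8 genes, 0.02 for 16 SUMO genes, 0.01 for 7 UFM1 genes, -0.14 for 4 FAT10 and URM1 genes and -0.02 for 9 ATG genes. The combined counts were small and unsteady: leaving out control replicate 3 gave 3 higher and 2 lower, leaving out control replicate 1, CDK12 replicate 1 or CDK12 replicate 2 gave 2, 3 and 2 higher, and upper-quartile factors gave 9 higher and 3 lower.

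**Figure D4:**
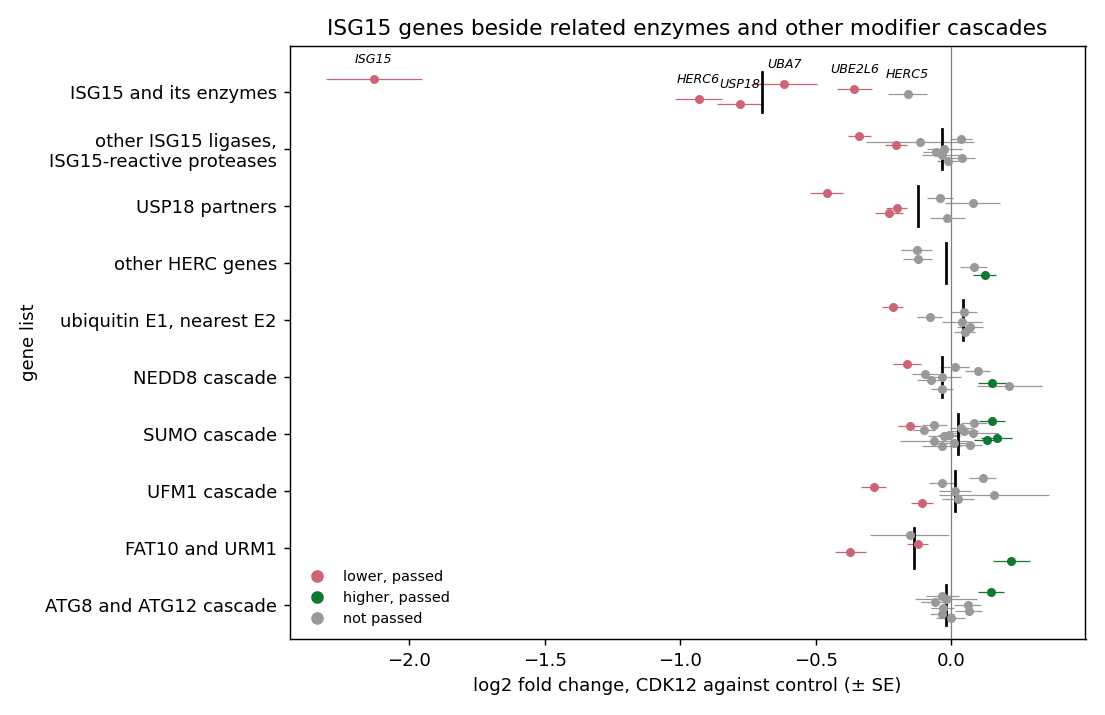
Log2 fold change of each gene, CDK12 against control (x axis, with its SE), by gene list (y axis); black ticks mark medians and colours mark the test across all genes. The genes of ISG15 and its enzymes run from -2.13 to -0.16, while those of the other modifier cascades lie between -0.37 and 0.22.

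Genes next to the members did not share one direction. Leaving out members, 10 tested genes were the nearest on either side of a member in RefSeq. Of these, 2 fell, 1 rose and 7 did not pass, the last with log2 fold changes from -0.14 to 0.10. Among all genes tested, 18.9% were lower and 16.2% higher, so these counts are near the shares over all genes. AGRN, beside ISG15 on chromosome 1, fell from 240 ± 14.6 to 175 ± 15.8 CPM (log2 fold change -0.46), and HES4, on the other side of ISG15, was at 11.2 ± 2.59 and 10.2 ± 1.29 CPM. TRAIP, beside UBA7 on chromosome 3, was lower (log2 fold change -0.36) but missed the threshold when control replicate 1 or 2 (-0.33 and -0.31) or CDK12 replicate 1 or 3 (-0.30 and -0.35) was left out, and with DESeq2's Wald test. SMTNL1, next to UBE2L6 on chromosome 11, rose from 0.551 ± 0.16 to 1.497 ± 0.41 CPM. HERC3, which follows HERC5 on chromosome 4, was at 52.7 ± 1.25 and 55.8 ± 1.35 CPM.

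The genes most like each member were found by the root mean square difference of centred log2(CPM + 0.5) values over the 6 libraries, a scale that damps genes of low level. For ISG15 they were PLSCR1 (0.136), IFIT3 (0.143) and RSAD2 (0.178). For UBA7 they were IRF7 (0.0526), PARP10 (0.0638) and DHX58 (0.0660), and GLYCTK (0.0856) and FREM2 (0.0909) were among the 3 nearest to HERC6. GLYCTK (0.0638), MAGEC3 (0.0736) and FREM2 (0.0766) came nearest to USP18. UBE2L6 had GPLD1 (0.0293), BRINP2 (0.0395) and the peptide transporter gene TAP2 (0.0436), and HERC5 had CDKAL1 (0.0234), MESDC2 (0.0236) and HPDL (0.0257). PLSCR1, IFIT3, RSAD2, IRF7, PARP10 and DHX58 are known interferon-stimulated genes. Genes that differ little between libraries are near many others on this measure.

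Upstream of the set, the interferon genes were near the limit of counting. None of 9 interferon genes passed the filter, so none was tested. IFNL2, a type III interferon gene with a near copy in IFNL3, had 10, 8 and 8 counts in the controls and 0, 1 and 0 with the CDK12 virus. IFNL3 had 7, 10 and 11 counts in the controls and 2, 6 and 2 with the CDK12 virus, and IFNL1 had 7, 2 and 9 against 0, 4 and 1. IFNB1 had 1, 4 and 2 counts against 1, 0 and 3, and IFNA1, IFNA2, IFNK and IFNG had 0 in every library. A count of 0 allows a level of up to 0.112 to 0.144 CPM, by library and for counting error only. Of 15 interferon receptor and signalling genes tested, 8 fell and 0 rose, where 18.9% of all genes tested were lower. IRF9, the DNA-binding subunit of ISGF3, was at 87.3, 67.9 and 67.6 CPM in the controls and at 21.8, 22.7 and 23.9 CPM with the CDK12 virus.

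Over genes other than the members, the response element core was found in the promoter windows of 448 tested genes. Of these, 124 (27.7%) were lower and 71 (15.8%) higher with the CDK12 virus, with a median log2 fold change of -0.04. Of 10992 tested genes whose windows lacked it, 2171 (19.8%) were lower and 1752 (15.9%) higher, with a median of -0.0014. A log2 fold change below -1 was seen in 30 (6.70%) of the genes with the core and in 146 (1.33%) of those without. A longer pattern, the core followed by C, was also searched on both strands and was found in ISG15 and HERC5. Of 121 other tested genes with it, 46 (38.0%) were lower and 16 (13.2%) higher. Without it, the shares were 19.9% lower and 16.0% higher of 11319 genes. For the gamma-activated site the shares were 21.4% lower of 1010 genes with it and 19.9% of 10430 without. In either direction, 43.5% of the genes with the core and 35.7% of those without passed, and no test was made of the difference between these shares.

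**Figure D5:**
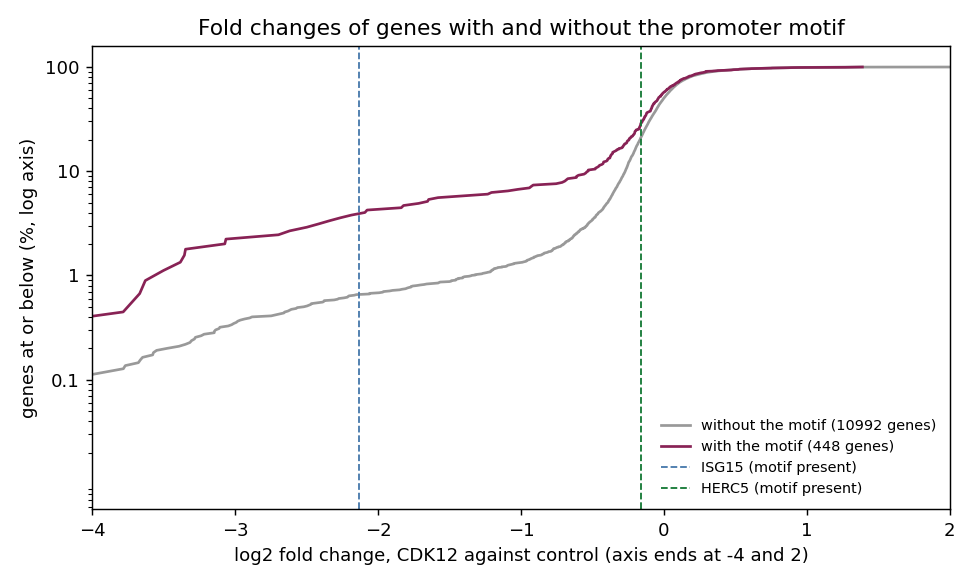
Share of tested genes at or below a log2 fold change (y axis, percent, log axis; x axis, CDK12 against control), for 448 genes with and 10992 without the response element core in a promoter window, members left out. Dashed lines mark ISG15 (-2.13) and HERC5 (-0.16), whose windows both hold the core; the curve of genes with it lies higher below about -1, where 6.70% and 1.33% of the genes are found.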

How the data were processed

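Each deposited file gives whole-number counts by gene symbol for 1 library, not normalized by the authors. The submitters' processing notes name build hg19, featureCounts (Subread 1.6.2), STAR 2.6.0c and CASAVA 1.8; the strand setting, annotation and multi-mapping rule were not given in the sources used here.

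Genes were filtered with edgeR 4.0.16 (filterByExpr, minimum count 10, minimum total 15), scaled by TMM and tested by quasi-likelihood in a model of group alone; p-values were adjusted by Benjamini-Hochberg over 14665 genes at a threshold of 0.05. The fit was tested on simulated data with few changed genes, as many raised as lowered. In the data 35.1% of genes passed, so that setting differs and gives no check on the scaling. The SE is the log2 fold change divided by the square root of F. Alternatives were other scalings and filters, DESeq2 1.42.0, limma-voom (limma 3.58.1), a replicate block and leaving out each library.

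The members and gene lists were chosen with earlier results of these data known; the combined list of other cascades was added after its values were seen. Named genes are the members, up to 3 per list and direction with the smallest p, nearest neighbours in RefSeq, the 3 most alike per member, and genes whose role needs a value; the text prints a part of these, and some are not reported here. Sequences are RefSeq's, and exon lengths and transcripts GENCODE 29's, both on GRCh38. No protein sequences were used here.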

Additional observations from a re-analysis of the deposited data

How the results depend on the processing

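Over 14 alternatives, each member kept a negative log2 fold change: ISG15 ran from -2.32 to -1.76, HERC6 from -1.05 to -0.75, USP18 from -0.85 to -0.66, UBA7 from -0.73 to -0.45, UBE2L6 from -0.43 to -0.24 and HERC5 from -0.21 to -0.11. The count of members called lower was 5 throughout, except that it was 6 with the replicate block and without CDK12 replicate 1, where HERC5 also passed. The replicate block gave 5106 genes called against 5143. The deviations of same-numbered libraries correlated at -0.09, 0.10 and 0.06, and not every library correlated best with its own number. With 3 libraries per group, such small values cannot decide whether same-numbered libraries shared an infection or a batch. Leaving out 1 library gave a member median log2 fold change from -0.78 to -0.55 and 3988 to 5045 genes called. The calls over all genes were 2371 higher and 2772 lower with TMM, 3164 and 2144 with upper-quartile factors and 3324 and 2064 with total counts only. SKP2 changed sign with upper-quartile factors (0.0211), with total counts only (0.0266) and without CDK12 replicate 2; leaving out 1 library gave it log2 fold changes from -0.0307 to 0.00754. HES4 ran from -0.281 to 0.0592 in the same way and changed sign without control replicate 3. Neither passed the test in any of these. The response element core followed by C was in 0.795% of promoter windows. At 89 to 104 counts of ISG15 per CDK12 library the level is well above the floor, whereas the interferon genes are not.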
